A study of Mus musculus with 12 samples.

Results

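The Fcγ receptors are the 4 receptors that bind the constant part of IgG on mouse leukocytes, encoded by Fcgr1, Fcgr2b, Fcgr3 and Fcgr4, together with Fcer1g, which encodes the γ chain that 3 of them signal through. These 5 genes, of 29737 in the count table, were chosen by name and by measured values, since Fcgr1 and Fcgr4 were known to be lower with Tβ-MCA than with PBS. All 5 passed the filter on low counts and were among the 16761 genes tested. Wild-type mouse bone marrow neutrophils, taken as Ly6G+ cells on magnetic beads, were cultured in RPMI medium with fetal bovine serum for 24 h and profiled by stranded mRNA sequencing. The medium held PBS, 200 µM taurocholic acid (TCA), 200 µM glycocholic acid (GCA) or tauro-β-muricholic acid (Tβ-MCA), with 3 libraries a group and 12 in all. TCA and GCA are cholic acid joined to taurine and to glycine. For Tβ-MCA the labels give 10 µM and the study's methods another concentration, so its values stand beside those of TCA and GCA without a test between them. The study's mice were female C57BL/6 animals of 4 to 6 weeks. The labels do not tie libraries to animals or cultures, so p-values measure the spread between these libraries, which may be technical.

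IgG receptors let phagocytes take up antibody-coated particles. The receptors of Fcgr1 (high affinity), Fcgr3 and Fcgr4 are activating: they have no signalling motif of their own in mouse and use the ITAM of the γ chain, which Src-family kinases phosphorylate and Syk then binds. FcγRIIb, the product of Fcgr2b, carries an ITIM that recruits phosphatases and dampens the activating receptors. On mouse neutrophils FcγRIII and FcγRIV are the main activating IgG receptors, whereas FcγRI is best known from monocytes, macrophages and some dendritic cells. Interferon γ is a known inducer of Fcgr1, and PU.1 is a known myeloid factor of Fc receptor promoters.

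Library totals ran from 32757389 to 41375925 counts, at which 3 counts amount to between 0.0725 and 0.0916 CPM, that is counts scaled to the size of each library. The summed level of 10 neutrophil markers, with S100a8, S100a9, Csf3r and Mmp8 among them, was 33509 to 40456 CPM with PBS, and all 10 were detected. The defining marker Ly6g itself was present at 17.8 to 21.4 CPM with PBS and at 7.54 to 12.9 CPM with Tβ-MCA. A set of 12 monocyte and macrophage markers summed to 1105 to 1136 CPM with PBS and was detected in every group. Among the Tβ-MCA libraries replicate 5 stood nearer to PBS than replicates 3 and 4, and the Tβ-MCA differences of the members and of the pathway genes are given with and without it. Since it was singled out for standing nearer to PBS, leaving it out favours larger differences and more calls. The values without it are a description.

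Fcgr2b, Fcgr4, Fcgr3 and Fcer1g lie in this order on chromosome 1 of GRCm38, and Fcgr1 lies on chromosome 3. Fcgr2b covers 170958617 to 170976547 on the minus strand and Fcgr4 covers 171018920 to 171029761 on the plus strand, 42.4 kb away. Fcgr3 covers 171051174 to 171064935 and Fcer1g 171229572 to 171234365, both on the minus strand. Fcgr1 covers 96282909 to 96293969 on the minus strand of chromosome 3. The promoters of the receptor that was lowest with Tβ-MCA, of the other lower receptor and of the inhibitory receptor are shown, each from 250 bases before to 50 bases after the start site in RefSeq on GRCm38.p6. Capitals mark matches, on either strand, to 3 motifs. These were TTCNNNGAA, read by STAT factors, GAGGAA, a purine box of the PU.1 type, and the interferon regulatory factor (IRF) element, searched as 2 copies of GAAA with any 2 bases between them.
Fcgr1, chr3:96293920-96294219, minus strand: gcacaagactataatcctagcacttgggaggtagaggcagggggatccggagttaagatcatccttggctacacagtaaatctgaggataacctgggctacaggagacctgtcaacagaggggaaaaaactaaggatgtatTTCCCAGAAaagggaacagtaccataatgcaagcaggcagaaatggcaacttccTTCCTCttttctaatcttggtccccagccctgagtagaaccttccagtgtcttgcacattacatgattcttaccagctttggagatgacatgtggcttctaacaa
Fcgr4, chr1:171018676-171018975, plus strand: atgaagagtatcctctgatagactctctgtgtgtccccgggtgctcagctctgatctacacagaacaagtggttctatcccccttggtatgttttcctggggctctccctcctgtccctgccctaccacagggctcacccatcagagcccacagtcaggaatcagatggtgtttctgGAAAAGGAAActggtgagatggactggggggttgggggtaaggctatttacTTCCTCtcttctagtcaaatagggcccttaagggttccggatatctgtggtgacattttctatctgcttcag
Fcgr2b, chr1:170976022-170976321, minus strand: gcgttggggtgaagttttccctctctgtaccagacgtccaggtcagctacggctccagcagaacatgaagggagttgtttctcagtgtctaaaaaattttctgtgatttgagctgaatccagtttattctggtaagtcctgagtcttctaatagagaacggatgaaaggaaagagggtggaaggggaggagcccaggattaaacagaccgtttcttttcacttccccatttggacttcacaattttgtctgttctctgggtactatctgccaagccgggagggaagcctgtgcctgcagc

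The Fcgr1 promoter held a STAT match at -109 to -101 and a purine box on the other strand at -55 to -50, counted from 0 at the start site. In the Fcgr4 promoter there was an IRF match at -73 to -64 and a purine box on the other strand at -22 to -17. The first of 2 listed Fcgr3 promoters held 1 purine box, at -15 to -10, and those of Fcgr2b and Fcer1g held none of the 3 motifs. No match overlapped another. Of all 32851 promoters of the table, 8.30% held the STAT motif, 28.3% the purine box and 3.44% the IRF motif. A match describes the letters of the window, and binding was not measured.

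Fcgr1 had the lowest level of the 5 genes and differed most between libraries. Its level with PBS was 2.15 CPM in replicate 3, 3.53 in replicate 5 and 4.99 in replicate 6. With TCA it was 3.41, 3.82 and 5.69 CPM in replicates 3, 4 and 5, and with GCA 2.96, 2.32 and 3.55 CPM. The order of the means was TCA, PBS, GCA and Tβ-MCA, and the first 3 groups overlapped. The Tβ-MCA libraries gave 0.150, 0.0540 and 1.98 CPM in replicates 3, 4 and 5, all under every other library, with replicate 5 just under PBS replicate 3. Replicates 3 and 4 held 5 and 2 counts, and the 2 counts are under the floor of 3, so Fcgr1 was at or near the limit of detection there. Their 7 counts together allow 0.0399 to 0.205 CPM (exact Poisson interval at 95%, counting error only). The group means were 3.56 ± 1.42 CPM with PBS and 0.728 ± 1.09 with Tβ-MCA (SD, n = 3 each).

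Fcgr4, the gene of the receptor for IgG2a and IgG2b, was also lower with Tβ-MCA, by a smaller factor than Fcgr1. PBS replicates 3, 5 and 6 had 33.9, 43.1 and 43.3 CPM, and TCA replicates 3, 4 and 5 had 35.4, 41.9 and 43.8 CPM. GCA gave 36.9, 28.9 and 45.3 CPM, so GCA replicate 4 was below every PBS and TCA library. Tβ-MCA gave 11.8, 19.3 and 31.6 CPM in replicates 3, 4 and 5. All 3 were under the lowest PBS library, and replicate 5 reached into the GCA range. The means were 40.1 ± 5.39 CPM with PBS, 40.4 ± 4.40 with TCA, 37.0 ± 8.19 with GCA and 20.9 ± 10.0 with Tβ-MCA (SD, n = 3 each).

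Fcgr3, the activating receptor for IgG immune complexes, had nearly the same level in all groups. Its 12 values lay between 248 and 305 CPM, with means of 274 ± 25.1 with PBS, 291 ± 11.9 with TCA, 280 ± 21.9 with GCA and 284 ± 15.5 with Tβ-MCA (SD, n = 3 each), and every pair of groups overlapped. Fcer1g, the shared γ chain, behaved alike: the lowest value was 189 CPM in PBS replicate 3 and the highest 244 CPM in PBS replicate 5, and the PBS range held all other libraries. The mean of Fcer1g was 221 ± 28.8 CPM with PBS and 210 ± 15.1 with Tβ-MCA (SD, n = 3 each).

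Fcgr2b, the inhibitory receptor, was the one member with every Tβ-MCA library above every PBS library. PBS replicates 3, 5 and 6 had 128, 166 and 168 CPM. TCA replicates 3, 4 and 5 had 146, 175 and 166 CPM, and GCA replicates 144, 189 and 168 CPM. The Tβ-MCA values were 202, 230 and 184 CPM in replicates 3, 4 and 5, all above the highest PBS library, although GCA replicate 4 exceeded Tβ-MCA replicate 5. The means were 154 ± 22.5 CPM with PBS and 205 ± 23.2 CPM with Tβ-MCA (SD, n = 3 each). The order of the means was Tβ-MCA, GCA, TCA and PBS, and each neighbour in it overlapped the next. PBS replicate 3 was the lowest PBS library for all 5 genes.

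**Figure D1:**
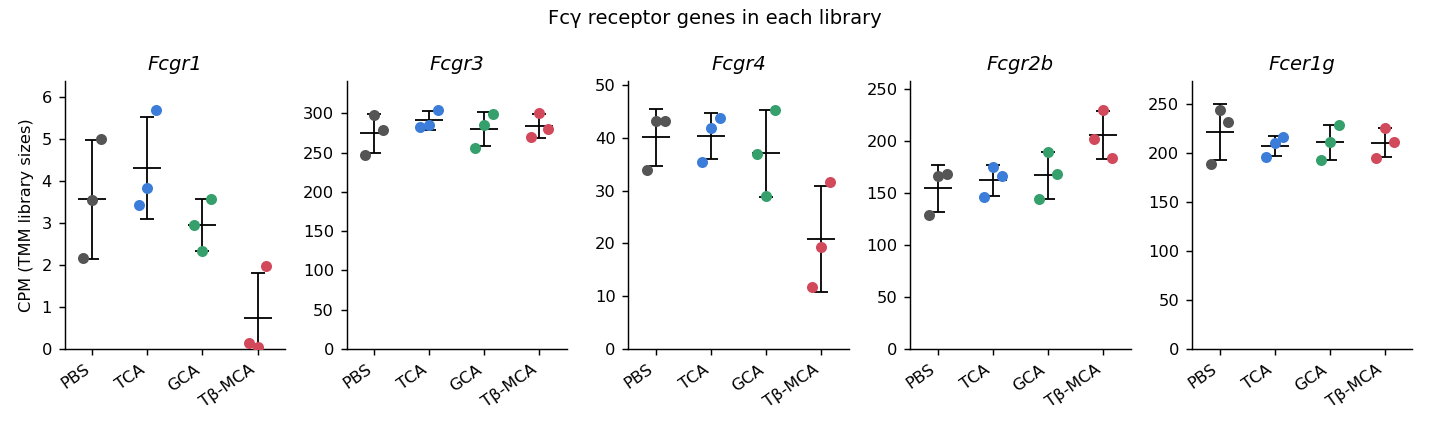
CPM of each gene (vertical axis, linear from 0) in every library by group, points in order of replicate number, with the mean (bar) and SD (whiskers, the lower one for Fcgr1 with Tβ-MCA running below 0). Fcgr1 and Fcgr4 sit under every PBS library with Tβ-MCA, with replicate 5 the highest of the 3, while Fcgr3 and Fcer1g overlap in all groups.

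Because the members were chosen on the contrast of Tβ-MCA with PBS, its differences are a description and carry no test. By edgeR the log2 fold change was -2.26 ± 0.81 (SE) for Fcgr1 and -0.94 ± 0.31 for Fcgr4. It was 0.41 ± 0.12 for Fcgr2b, 0.05 ± 0.08 for Fcgr3 and -0.07 ± 0.09 for Fcer1g. As ratios of mean CPM, Fcgr1 was 4.89-fold lower, Fcgr4 1.92-fold lower and Fcgr2b 1.33-fold higher. Without Tβ-MCA replicate 5 the log2 fold changes were -5.11 for Fcgr1, which then rests on 7 counts, -1.36 for Fcgr4 and 0.48 for Fcgr2b. Over all genes tested, 12.8% had all 3 Tβ-MCA libraries under all PBS libraries, as Fcgr1 and Fcgr4 did, and 14.1% had them above, as Fcgr2b did. In the edgeR quasi-likelihood test over all genes 4.44% were higher and 3.18% lower with Tβ-MCA at an adjusted p under 0.05.

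TCA and GCA were not used in choosing the members and were tested, against the same PBS libraries. None of the 5 members passed in TCA with PBS, in GCA with PBS or in GCA with TCA, by the edgeR quasi-likelihood test adjusted over all genes (Benjamini-Hochberg), and 0 of 5 had an unadjusted p under 0.05 in any of the 3. Over all genes 0% passed in each of the 3 comparisons by edgeR, while 3.26%, 3.53% and 2.46% had an unadjusted p under 0.05. By DESeq2 the counts of called genes were 1, 0 and 0, and by limma 0 in each. The largest difference of a member from PBS was that of Fcgr1: 0.27 ± 0.70 (log2, SE) with TCA and -0.27 ± 0.71 with GCA, with adjusted p of 0.9999 and 0.999. For Fcgr4 the log2 fold change was 0.01 with TCA (95% interval -0.68 to 0.71) and -0.11 with GCA (-0.81 to 0.58). Intervals for Fcgr3 were much narrower, -0.08 to 0.25 with TCA and -0.14 to 0.19 with GCA.

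GCA and TCA share dose, time and the cholic acid part, and differ in the amino acid joined to it, glycine or taurine. This is the one pair of compounds compared. Fcgr4 differed by -0.12 on the log2 scale between GCA and TCA, with a 95% interval of -0.82 to 0.57. For Fcgr2b the difference was 0.04 (-0.23 to 0.31), for Fcgr3 -0.06 (-0.22 to 0.11) and for Fcer1g 0.03 (-0.17 to 0.22). Fcgr1 had the widest interval, -2.14 to 1.04 around -0.55. Each edgeR adjusted p over all genes was 0.9998. A missed threshold does not show that the compounds act alike, since the intervals of Fcgr1 and Fcgr4 reach to -2.14 and -0.82.

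**Figure D2:**
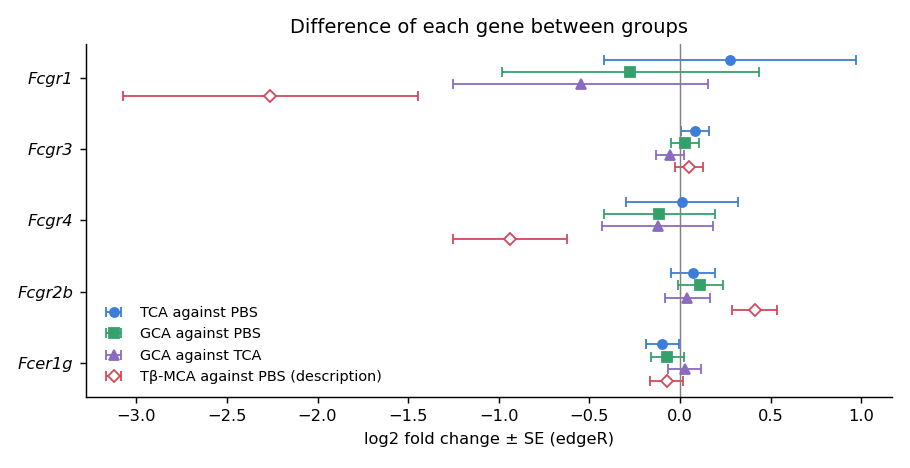
Log2 fold change (horizontal axis) with its SE for each gene in 4 comparisons, with open diamonds for Tβ-MCA, whose contrast chose the genes and was not tested. Fcgr1 at -2.26 and Fcgr4 at -0.94 lie to the left with Tβ-MCA and Fcgr2b at 0.41 to the right, and the TCA and GCA values lie around 0.

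Per length, in RPKM, which divides the library-scaled counts by the merged exon length, the γ chain was the most abundant of the 5 in PBS at 251 ± 34.7 and Fcgr3 was the most abundant receptor at 156 ± 15.6. Fcgr4 had 31.6 ± 4.54 RPKM, Fcgr2b 26.4 ± 4.09 and Fcgr1 1.36 ± 0.555 (SD, n = 3 each). The Fcgr4 range with PBS, 26.3 to 34.4 RPKM, overlapped that of Fcgr2b, 21.7 to 29.0, but within each PBS library Fcgr4 was higher. In PBS replicates 3, 5 and 6 Fcgr4 had 26.3, 34.0 and 34.4 RPKM and Fcgr2b 21.7, 28.5 and 29.0. With Tβ-MCA Fcgr2b had 36.3 ± 4.40 RPKM and Fcgr4 16.97 ± 8.03, and their ranges, 32.2 to 40.9 and 9.58 to 25.5 RPKM, did not meet. The merged exons of Fcgr2b span 5790 bases, against 3544 in its longest coding transcript, so RPKM may understate its level against the other genes. Over the longest coding transcript Fcgr2b had 43.1 ± 6.68 RPKM with PBS and 59.2 ± 7.19 with Tβ-MCA (SD, n = 3 each), above Fcgr4 in both groups. Fcgr3 made up 72.6% of the summed receptor RPKM with PBS and 75.8% with Tβ-MCA. The share of Fcgr4 was 14.6% with PBS and 7.63% with Tβ-MCA, and that of Fcgr2b 12.2% and 16.5%.

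The ratio of activating to inhibitory receptor RNA, the RPKM of Fcgr1, Fcgr3 and Fcgr4 over that of Fcgr2b, was 7.68, 7.20 and 6.77 in PBS replicates 3, 5 and 6. It was 7.64, 6.61 and 7.40 in TCA replicates 3, 4 and 5. GCA gave 7.16, 5.76 and 7.24, with replicate 4 the lowest outside the Tβ-MCA group. Tβ-MCA gave 4.72, 4.75 and 5.90 in replicates 3, 4 and 5, and only replicate 5 exceeded GCA replicate 4. The mean was 7.22 ± 0.457 with PBS and 5.12 ± 0.675 with Tβ-MCA (SD, n = 3 each), a log2 difference of -0.50 from the contrast that chose the members, not tested. The log2 ratio differed by -0.0012 in TCA against PBS (exact two-sided permutation p = 1), by -0.11 in GCA against PBS (exact p = 0.5) and by -0.11 in GCA against TCA (exact p = 0.5). With 3 against 3 the smallest p possible is 0.1. Without Fcgr1 the difference for Tβ-MCA was -0.49, and without Tβ-MCA replicate 5 it was -0.61.

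**Figure D3:**
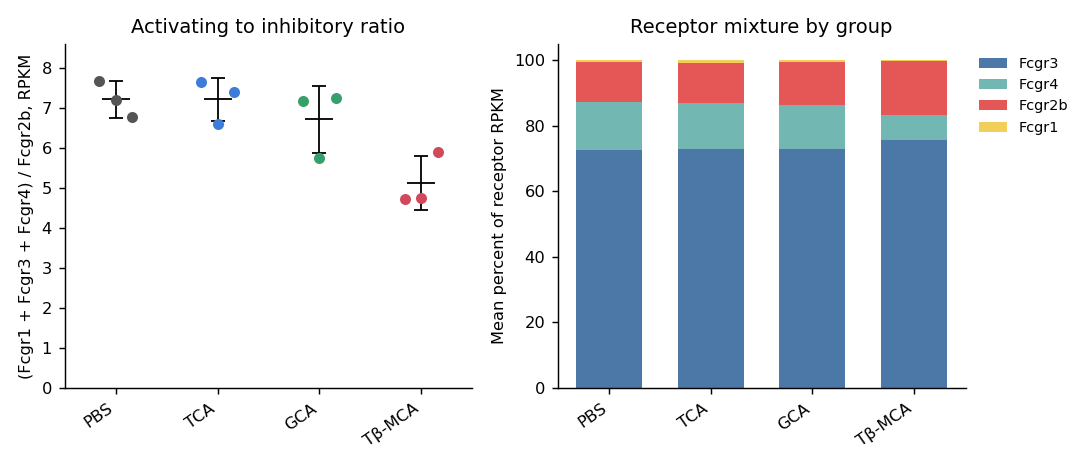
Left, the ratio of summed activating receptor RPKM to Fcgr2b RPKM in each library (points, linear axis from 0) with mean and SD; right, the mean percent of the summed RPKM of the 4 receptors held by each one. Tβ-MCA libraries lie at 4.72 to 5.90 against 6.77 to 7.68 with PBS, and Fcgr4 narrows from 14.6% to 7.63% of the mixture.

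Reads of Fcgr2b and Fcgr3 can be hard to tell apart, because the genes are close relatives. The longest stretch shared by their longest coding transcripts is 129 bases of coding sequence in exons 3 and 4 of both, within chr1:170966674-170968081 for Fcgr2b and chr1:171054167-171057792 for Fcgr3 on GRCm38. It is shown in full, from the GENCODE vM21 transcripts, because a read inside it fits both genes.
Shared by Fcgr2b and Fcgr3: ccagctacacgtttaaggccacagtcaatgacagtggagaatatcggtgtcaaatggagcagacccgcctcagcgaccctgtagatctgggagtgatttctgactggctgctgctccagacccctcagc

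Of the distinct runs of 50 bases in its transcripts, 9.58% of those of Fcgr3 and 2.92% of those of Fcgr2b occurred in both genes, and for Fcgr1, Fcgr4 and Fcer1g none was shared with any other gene. Counting genes other than Fcgr3 too, 4.38% of the runs of Fcgr2b were shared. Gm38204 overlaps Fcgr2b on the other strand, at 0.857 to 1.65 CPM. The strand setting of the counting is not given in the sources used here, and neither is the handling of reads that fit both genes. The levels of Fcgr2b and Fcgr3 are uncertain to that extent.

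Genes near the receptors were given for context. Of all genes tested in Tβ-MCA against PBS, 4.44% were higher and 3.18% lower at an adjusted p under 0.05. Within 100 kb of a member the table held 53 other genes, of which 34 were tested in this contrast: 0 rose and 2 fell. These were the histone gene Hist2h2aa2 and Gm20632, which overlaps it, 41.1 to 42.6 kb from Fcgr1, with log2 fold changes of -0.32 ± 0.09 each and edgeR adjusted p of 0.038 and 0.037. The 2 share reads or position and count as 1 observation. Fcrla and Fcrlb, Fc receptor-like genes beside Fcgr2b, had 0.43 ± 0.32 and 0.72 ± 0.35 at up to 1.67 and 1.06 CPM, and neither passed.

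The lower Fcgr1 and Fcgr4 values stood in the same libraries as a lower sum of monocyte and macrophage markers. The 12 markers summed to 290, 349 and 857 CPM in Tβ-MCA replicates 3, 4 and 5, against 1105 to 1136 with PBS, 1002 to 1193 with TCA and 779 to 1088 with GCA, where replicate 4 was lowest. Of the 12, 6 were below every PBS library in all 3 Tβ-MCA libraries, as were 12.8% of all genes tested. None of the 12 was at 0 in any group. Ccr2, a chemokine receptor of monocytes, had 51.2, 37.3 and 37.9 CPM in PBS replicates 3, 5 and 6 and 2.03, 2.70 and 29.2 CPM with Tβ-MCA. The markers outside the 6 overlapped PBS. Csf1r had 215, 262 and 271 CPM in the same PBS libraries and 146, 178 and 235 in Tβ-MCA replicates 3, 4 and 5. C1qc had 1.38, 2.62 and 2.48 CPM with PBS and 1.73, 0.891 and 2.46 with Tβ-MCA. F13a1 and Csf1r were the largest parts of the sum, at 584 and 215 CPM in PBS replicate 3. Set against the PBS mean, the marker sum was 25.8%, 31.1% and 76.3% in Tβ-MCA replicates 3, 4 and 5. Fcgr1 stood at 4.20%, 1.52% and 55.7% and Fcgr4 at 29.4%, 48.1% and 78.9%. In GCA replicate 4 the 3 values were 69.4% for the markers, 65.2% for Fcgr1 and 72.2% for Fcgr4. In bulk libraries fewer cells of a type and less RNA per cell cannot be told apart, and the part of monocytes in the member values was not tested.

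**Figure D4:**
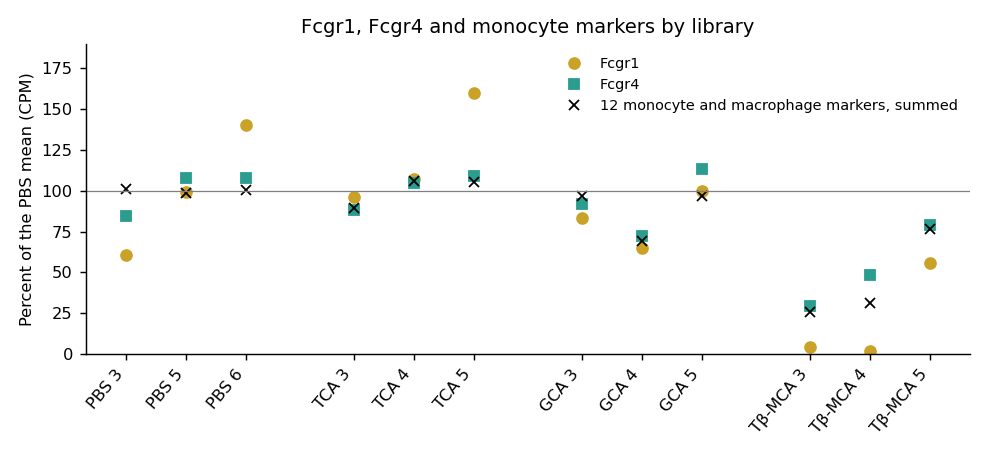
Fcgr1 (circles), Fcgr4 (squares) and the sum of 12 monocyte and macrophage markers (crosses) in each library as percent of the PBS mean in CPM (linear axis from 0). In Tβ-MCA replicates 3 and 4 all 3 lie at or under 48.1%, with Fcgr1 at 4.20% and 1.52%, and replicate 5 lies between 55.7% and 78.9%.

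Neutrophil markers moved in these libraries too. Their sum was 26207 to 30683 CPM with Tβ-MCA, against 33509 to 40456 with PBS. In all 3 Tβ-MCA libraries 9 of the 10 were below every PBS library, as were 12.8% of all genes tested. Csf3r, the receptor of G-CSF, was the exception, at 949 to 1106 CPM with Tβ-MCA and 851 to 1095 with PBS. The part of this shift in the receptor values was not tested.

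Over the 12 libraries the genes most like Fcgr1 and those most like Fcgr4 were not the same, by the root mean square difference of log2 CPM after centring on the PBS mean among the 16760 other genes tested. For Fcgr1 they were Msr1 (0.50), a scavenger receptor of macrophages, Ccr2 (0.51), Fn1 (0.51), which encodes fibronectin, Apol7d (0.52) and C3ar1 (0.61), the receptor of C3a. For Fcgr4 they were Retnlg (0.09), a resistin-like gene of the neutrophil marker list, Entpd3 (0.11), an ectonucleotidase, Il13ra1 (0.11), an interleukin 13 receptor chain, RP23-312B17.2 (0.11) and Lilra6 (0.13), an activating paired receptor. Msr1 had 21.2, 29.6 and 32.2 CPM in PBS replicates 3, 5 and 6 and 1.73, 2.51 and 21.2 CPM in Tβ-MCA replicates 3, 4 and 5. Retnlg had 631, 805 and 730 CPM with PBS and 204, 373 and 589 CPM with Tβ-MCA. Fcgr4 and Fcgr1 differed by 1.34 from each other on this measure, which ranked Fcgr4 252 in likeness to Fcgr1 and Fcgr1 16588 in likeness to Fcgr4. The measure takes in the size of a change as well as its direction. In Tβ-MCA replicates 3 and 4 the log2 difference from the PBS mean was -4.06 and -4.97 for Fcgr1, near the floor. For Fcgr4 it was -1.75 and -1.04, so the distance between the 2 genes rests largely on these libraries. These likenesses describe 12 libraries that share their groups and say nothing of shared function.

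The pathway around the receptors was followed in 7 lists with 128 entries, of which 119 were in the table and 112 were tested in Tβ-MCA against PBS. Of these, 5 rose and 7 fell at an edgeR adjusted p under 0.05, which is 4.46% and 6.25% against the 4.44% and 3.18% of all genes. The median log2 fold change of the 112 was -0.10, against 0.0041 over all genes. With TCA and with GCA none passed, and 2 of 112 had an unadjusted p under 0.05 in each. The lists were chosen with earlier results of these data known, so their shares and median beside all genes are a description. The calls depended on single libraries, as they did over all genes: without PBS replicate 3 or 5, or without Tβ-MCA replicate 3 or 4, 0 rose and 0 fell, without PBS replicate 6 there was 1 higher and 0 lower, and without Tβ-MCA replicate 5 there were 12 higher and 28 lower of 114. Over all genes these fits gave 0% in either direction in the first 4 cases, 0.607% higher and 0.374% lower without PBS replicate 6, and 8.52% higher and 9.44% lower without Tβ-MCA replicate 5. With the PBS and Tβ-MCA libraries alone in the fit, none passed here or over all genes. At an unadjusted p under 0.05 the edgeR fits that gave 0 calls held 9 to 12 higher and 19 to 28 lower genes, and the fit of all libraries 12 and 34. The share of all genes at that p was 16.8% to 21.7% in the former fits and 24.9% in the latter. Each of the 12 called genes lost its call under at least 1 alternative, with a highest adjusted p of 0.116 to 0.212, and all 12 kept it without Tβ-MCA replicate 5. That library was left out for its likeness to PBS. A gene that passed without it and not with all libraries is therefore not counted as called.

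Among 30 kinases and adaptors of ITAM signalling, 2 rose, 2 fell and 26 did not pass, with a median of -0.07. The counts were 4 higher and 7 lower without Tβ-MCA replicate 5. Fgr, a Src-family kinase of myeloid cells, fell by 0.33 ± 0.08 on the log2 scale (edgeR adjusted p = 0.032), or by 0.45 without Tβ-MCA replicate 5. Fgr went from 288 ± 1.37 to 230 ± 33.3 CPM (SD, n = 3 each), and the groups did not overlap. Pik3r2, a regulatory subunit of PI3 kinase, rose by 0.55 ± 0.13 from 33.9 ± 1.71 to 49.7 ± 7.79 CPM, and Malt1, a protease that acts downstream of CARD9, by 0.35 ± 0.09 (edgeR adjusted p = 0.029 and 0.032). Syk, named for its role after its values were seen, had 671 ± 9.07 CPM with PBS and 766 ± 36.7 CPM with Tβ-MCA (log2 0.19 ± 0.06, edgeR adjusted p = 0.060). Without Tβ-MCA replicate 5 the log2 fold changes were 0.67 for Pik3r2, 0.39 for Malt1 and 0.23 for Syk. Syk then passed, but in a fit without the library nearest to PBS, and is not counted as called.

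Of 13 inhibitory phosphatases and adaptors, 3 fell, 0 rose and 10 did not pass, with a median of -0.24. Leaving out Tβ-MCA replicate 5, 7 of the 13 fell and 0 rose. Dok2, an adaptor that restrains Ras signalling, fell by 1.20 ± 0.26 on the log2 scale (edgeR adjusted p = 0.027), from 13.8, 10.6 and 11.9 CPM in PBS replicates 3, 5 and 6 to 3.89, 3.78 and 8.08 CPM in Tβ-MCA replicates 3, 4 and 5. The phosphatases SHP-1, encoded by Ptpn6, and SHP-2, encoded by Ptpn11, fell by 0.29 ± 0.07 and 0.33 ± 0.09 (adjusted p = 0.027 and 0.034). Ptpn6 remained abundant, at 1101 ± 30.7 CPM with PBS and 899 ± 70.2 with Tβ-MCA (SD, n = 3 each). Inpp5d, which encodes SHIP-1, the main partner of FcγRIIb, is named after its values were seen: its log2 fold change was -0.03 ± 0.06 (edgeR adjusted p = 0.83). Without Tβ-MCA replicate 5 the log2 fold changes were -1.66 for Dok2, -0.36 for Ptpn6, -0.38 for Ptpn11 and -0.03 for Inpp5d.

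The γ chain also serves other receptors, and of 10 tested genes for such partners and for sister adaptors 1 fell and 0 rose, with a median of -0.05. This was Clec4n, the gene of Dectin-2, a receptor for fungal mannans. Its values were 9.29, 12.3 and 10.5 CPM in PBS replicates 3, 5 and 6 and 1.62, 1.86 and 6.13 CPM with Tβ-MCA, a log2 fold change of -1.73 ± 0.44 (edgeR adjusted p = 0.047). The list matched 13 of 21 names in the table. Lilra6 of this list had 87.7 ± 6.12 CPM with PBS and 45.0 ± 23.5 with Tβ-MCA and did not pass (-0.96 ± 0.32, edgeR adjusted p = 0.10). Without Tβ-MCA replicate 5 the list had 3 lower and 0 higher of 11, with -2.62 for Clec4n and -1.47 for Lilra6. Lilra6 passed in that fit and is not counted as called.

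In the list of interferon γ signalling, cytokine receptors and myeloid transcription factors, 2 of 20 rose and 0 fell, with a median of -0.09. Il10rb, the shared chain of the interleukin 10 receptor, rose by 0.50 ± 0.12 and Tgfbr2, the ligand-binding receptor of TGF-β, by 0.48 ± 0.10 on the log2 scale (edgeR adjusted p = 0.029 and 0.021). Both are cytokine receptors and neither belongs to the interferon γ pathway. Tgfbr2 had 65.9, 68.2 and 70.8 CPM in PBS replicates 3, 5 and 6 and 101, 99.5 and 85.7 CPM in Tβ-MCA replicates 3, 4 and 5, so the groups stood apart. Spi1, which encodes PU.1 and is named after its values were seen, had a log2 fold change of -0.17 ± 0.07 and did not pass (edgeR adjusted p = 0.15). Without Tβ-MCA replicate 5 the list had 4 higher and 5 lower. Then Il10rb was at 0.63 and Tgfbr2 at 0.55, and Spi1, not counted as called, passed at -0.23. Among the 5 lower were also Irf8 and Cebpa, transcription factors of the monocyte and granulocyte lineages, named after their values were seen, at -1.15 and -0.96.

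Of 19 genes of the actin and engulfment machinery, 1 fell and 0 rose, with a median of -0.13. This was Myo10, an unconventional myosin of filopodia and phagocytic cups, at -0.38 ± 0.11 (log2, edgeR adjusted p = 0.0496). Of 12 phagocytic partner receptors, 1 rose and 0 fell, with a median of -0.20. Sirpa, the inhibitory receptor that binds CD47 on target cells, rose by 0.26 ± 0.06 on the log2 scale, from 329 ± 8.63 to 393 ± 20.0 CPM (adjusted p = 0.029). Of 8 other Fc receptors and immunoglobulin binders tested, 0 passed in either direction, with a median of 0.17. With Tβ-MCA replicate 5 left out, the actin list had 1 higher and 2 lower, the partner receptors 1 higher and 3 lower, and the other Fc receptors 2 higher and 1 lower of 9. Myo10 was then at -0.43 and Sirpa at 0.30. The 3 other Fc receptor genes were Trim21 (0.47), a cytosolic IgG receptor, Fcrl1 (0.92) and Fcgrt (-1.93), which encodes the neonatal Fc receptor, named after their values were seen.

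**Figure D5:**
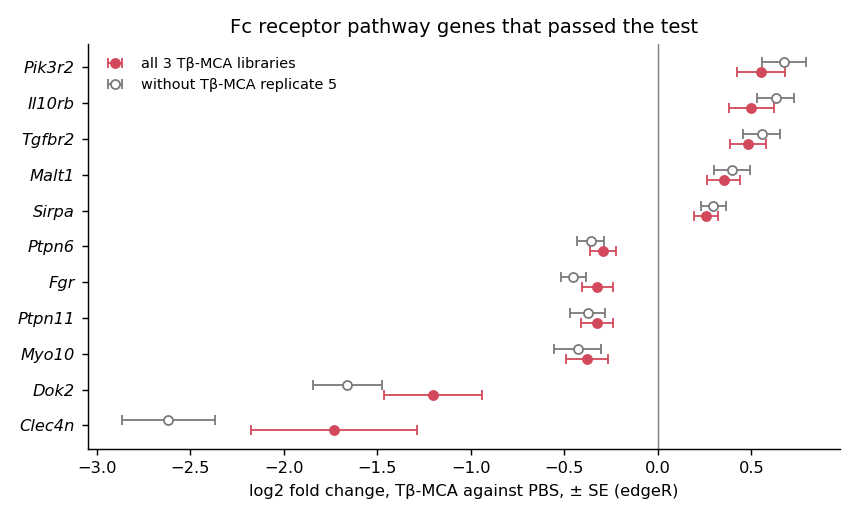
Log2 fold change with its SE (horizontal axis) in Tβ-MCA against PBS for the pathway genes reported here that passed the edgeR test, with all libraries (filled) and without Tβ-MCA replicate 5 (open). Clec4n at -1.73 and Dok2 at -1.20 lie farthest to the left, and Pik3r2 at 0.55 farthest to the right.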

How the data were processed

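Libraries were made from total RNA extracted with TRIzol, with a stranded mRNA kit. Per the labels' processing notes the authors used Trimmomatic 0.36, STAR 2.5.3a and featureCounts of Subread 1.5.1 on GRCm38 (mm10). They deposited a table of read counts per gene and a table of RPKM per gene, and recalculating the RPKM from the counts and the merged exon lengths gave the deposited values to within a relative difference of 1.3e-06. Handling of reads that fit several genes, and of strand, is not given in the sources used here.

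The members and gene lists were chosen with earlier results of these data known. Counts were normalized by TMM, filtered with filterByExpr and fitted over all 12 libraries with edgeR 4.0.16 (robust quasi-likelihood, R 4.3.3); a gene passed at an adjusted p under 0.05 (Benjamini-Hochberg, over the 16761 genes tested). CPM uses TMM library sizes. The members carry no p in Tβ-MCA against PBS, the contrast that chose them. The ratio used the deposited RPKM and an exact two-sided permutation test (scipy 1.17.1). Named genes were the 5 members, up to 4 called genes a list in each direction by size of change, the 5 genes most like Fcgr1 and Fcgr4, neighbours within 100 kb, and markers that moved with a member. Of the neighbours, those that passed and a few others are printed. Some genes the rule covers are not reported here. The fit was tested on simulated counts. Alternatives were DESeq2 1.42.0, limma 3.58.1 on log2(RPKM + 1) and log2(RPKM + 0.1), total library sizes, no filter or one of 10 counts in every sample, 2 groups only, a replicate block, the study's cutoffs and leaving out each library; transcript lengths were added after seeing the data. Protein sequences were not used here.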

Additional observations from a re-analysis of the deposited data

How the results depend on the processing

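Depth limits Fcgr1, at 5 and 2 counts in 2 Tβ-MCA libraries, and 3 libraries a group limit every test. No member passed in TCA or GCA against PBS, or in GCA against TCA, under any of 14 alternatives each, and Fcgr1 was not tested where every sample needed 10 counts. Unadjusted edgeR p under 0.05 did occur. Fcgr1 in GCA against TCA had 0.0080 with no filter and 0.027 with the 2 groups alone. Fcer1g in TCA against PBS had 0.027 without PBS replicate 3. The counts of pathway genes in Tβ-MCA against PBS (5 higher, 7 lower) were 8 and 18 with DESeq2, 3 and 4 with limma on log2(RPKM + 0.1), 9 and 24 with no filter, 0 and 0 with the 2 groups compared alone, and 0 and 3 with the study's cutoffs. Total library sizes gave 9 higher pathway genes, and 1013 higher over all genes. All-gene calls moved too, from 745 higher and 533 lower to 1023 and 1012 with DESeq2, 476 and 213 with limma, 1108 and 1298 with no filter, 0 and 0 with 2 groups and 182 and 312 with the study's cutoffs. Leaving out single libraries gave 0 to 12 higher and 0 to 28 lower pathway genes.

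Log2 differences of members whose sign changed when a library was left out crossed 0 as follows. In Tβ-MCA against PBS they ran over -0.021 to 0.11 for Fcgr3 and -0.17 to 0.00086 for Fcer1g. In TCA against PBS they ran over -0.046 to 0.14 for Fcgr2b and -0.098 to 0.096 for Fcgr4. In GCA against PBS the ranges were -0.53 to 0.054 (Fcgr1), -0.0027 to 0.21 (Fcgr2b), -0.039 to 0.090 (Fcgr3), -0.28 to 0.036 (Fcgr4) and -0.17 to 0.0044 (Fcer1g). In GCA against TCA they were -0.059 to 0.14 (Fcgr2b), -0.11 to 0.0049 (Fcgr3), -0.30 to 0.026 (Fcgr4) and -0.036 to 0.087 (Fcer1g). The log2 ratio difference ran over -0.047 to 0.061 for TCA against PBS and -0.17 to 0.00031 for GCA against TCA, and the former was 0.0025 in CPM and 0.00076 with transcript lengths. The causes were not tested. In Tβ-MCA against PBS, whose direction chose the members, leaving out single libraries gave -5.11 to -1.71 for Fcgr1 and -1.36 to -0.65 for Fcgr4. With limma on log2(RPKM + 1) Fcgr1 was at -0.90.

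The labels do not say that replicate numbers pair the libraries. Number 6 occurs in PBS alone, and number 4 in every group but PBS. A block on the number therefore takes PBS replicate 6 out of the group differences and is not a full pairing. Deviations from group means correlated at 0.19 on average over 15 pairs of equal number (0.060 to 0.33) and at -0.072 over 39 of unequal number, and not every library correlated best with its own number. With the number as a replicate block, 7 pathway genes were higher and 13 lower (771 and 727 over all genes), 4 of the 12 called genes (Dok2, Clec4n, Pik3r2 and Myo10) no longer passed, with adjusted p of 0.064 to 0.11, no member passed in TCA or GCA, and the Fcgr1 difference in GCA against PBS was 0.30.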

Other observations

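Eosinophil markers (5 genes) summed to 138 to 241 CPM with PBS, 131 to 214 with TCA, 113 to 236 with GCA and 54.1 to 124 with Tβ-MCA. Basophil and mast cell markers (6 genes), among them Fcer1a and Ms4a2, which form the IgE receptor together with the γ chain, summed to 33.2 to 63.5 CPM with PBS and 30.6 to 55.4 with Tβ-MCA. Dendritic cell markers (6 genes) summed to 24.0 to 31.4 CPM with PBS and 15.5 to 24.0 with Tβ-MCA. B cell markers (6 genes) were at 7.55 to 12.8 CPM with PBS and 3.78 to 5.92 with Tβ-MCA. T and NK cell markers summed to at most 1.68 CPM and erythroid markers to at most 3.01 CPM in every library. The part of these cells in the receptor values was not tested.

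Fn1, one of the genes most like Fcgr1, and F13a1, one of the monocyte and macrophage markers, were abundant. Fn1 had 1621 to 2190 CPM with PBS, and in the Tβ-MCA group 50.3 in replicate 3, 54.4 in replicate 4 and 1233 in replicate 5. F13a1, a coagulation factor chain, had 519 to 584 CPM with PBS and 54.8, 75.9 and 367 CPM in the same 3 libraries.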
